A study of Mus musculus with 8 samples.

Results

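The genes described here are 10 markers of the retinal blood vessel wall, 5 of endothelial cells (*Pecam1*, *Cdh5*, *Cldn5*, *Ocln* and *Vwf*) and 5 of mural cells, the pericytes and smooth muscle cells that surround the endothelium (*Pdgfrb*, *Rgs5*, *Cspg4*, *Acta2* and *Abcc9*). They were chosen by name, with earlier results of these data known. All 10 were among the 17500 genes of the count table and among the 16797 genes that passed the count filter. Whole retinas of 6-month-old C57BL/6J mice were sequenced as poly(A)-selected RNA, 1 library per mouse, from 4 *Rbfox2*-/- mice (M893, M901, M902 and M909; "Rbfox2 KD" in the labels) and 4 controls (M833, M894, M896 and M898). The *Rbfox2*-/- mice carried *Rbfox2* fl/fl and a transgene for a tamoxifen-inducible Cre recombinase, and the controls were heterozygotes (*Rbfox2* fl/+) of matched age, according to the methods of the study. The labels give a tamoxifen treatment of 4 months for every library, controls included, whereas the methods place the tamoxifen 4 months before the mice were used. The study describes reporter expression under this transgene in ganglion cells, amacrine cells and sparse other cells of the inner nuclear layer, recombination in endothelial and mural cells was not measured here, and whole retina does not separate these cells from the neurons. The question addressed is whether the RNA of the vessel wall differed between these retinas, and whether endothelial and mural genes did so alike.

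Retinal capillaries are lined by endothelial cells joined by tight and adherens junctions, which form the inner blood-retina barrier. Pericytes sit on the outer face of this tube within a shared basement membrane, at an unusually high density in the retina, and smooth muscle cells replace them on arterioles. Endothelial cells recruit and hold pericytes through platelet-derived growth factor B and its receptor, and the loss of pericytes is an early feature of diabetic retinopathy. Rbfox2 is a splicing factor that binds RNA and acts in many cell types.

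Each library held between 160630226 and 211283591 counts on genes, and the 10 markers had between 189 and 4632 counts in each library, so that counting error was small beside the spread between mice. *Rbfox2* itself had 144 to 157 CPM (counts scaled to library size, with TMM normalization) in controls and 53.6 to 59.4 CPM in *Rbfox2*-/- libraries. Libraries also stood apart within their groups. *Xist*, the RNA of the inactive X chromosome, had 1440 CPM in M901 and 1739 CPM in M902 and 1.71 to 2.22 CPM in the other 6 libraries, and the labels give no sex. Markers of melanocytes and pigment were high in the controls M894 and M898. No control had high *Xist*, and both libraries richest in pigment markers were controls. These features are therefore partly confounded with the groups. The counts of each vessel list, and the values of most markers and of the genes with the lowest p, are given below with and without these libraries. In whole retina, fewer cells of a type and less RNA per cell cannot be told apart.

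Compared per transcript length, as the FPKM values of the authors (fragments scaled to gene length and library size), the markers spanned a wide range, and the order of their levels mixed both cell types. Over all 8 libraries, *Rgs5*, a regulator of G-protein signalling found in pericytes, had the highest mean with 9.23 FPKM (SD 1.46), followed by *Cldn5* with 6.04 (SD 1.08), *Pdgfrb* with 3.91 (SD 0.375) and *Pecam1* with 3.03 (SD 0.460). *Ocln* (1.56), *Vwf* (1.45), *Cdh5* (1.42) and *Acta2* (1.11) came next, and *Abcc9* (0.701) and *Cspg4* (0.253) were lowest on the same FPKM scale. The ranges of *Rgs5* and *Cldn5* over the 8 libraries overlapped, as did those of *Pdgfrb* and *Pecam1* and those of each neighbouring pair from *Ocln* to *Abcc9*. Within a library the order of the first 4 genes nevertheless held in all 8. *Ocln* exceeded *Vwf* in 6 of 8 libraries and *Vwf* exceeded *Cdh5* in 5 of 8, so that these neighbours in the order were not separated.

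Endothelial markers were lower in *Rbfox2*-/- retinas for 4 of 5 genes by their log2 fold change, with a median of -0.25, and none passed the test after adjustment over all genes. The difference was widest for *Vwf*, whose *Rbfox2*-/- mean was 68.9% of the control mean, whereas *Cldn5* had means of 8.51 and 8.61 CPM in controls and *Rbfox2*-/- mice. In the quasi-likelihood test of edgeR, adjusted after Benjamini and Hochberg over the genes tested, 0 of all 10 markers had an adjusted p under 0.05, where 0.0655% of all genes tested had one. At an unadjusted p under 0.05, 4 of the 10 were lower and none was higher (13.3% of all genes passed this threshold in either direction and 6.87% as lower). In 2 of 10 markers all *Rbfox2*-/- libraries lay below all controls, against 3.39% of all genes. Log2 fold changes were below 0 for 8 of the 10 markers and for 49.3% of all genes, and their median was -0.29 over the markers and 0.0016 over all genes.

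*Vwf* encodes von Willebrand factor, the clotting protein that endothelial cells store in Weibel-Palade bodies (chr6:125546774-125686679, plus strand, GRCm38 with GENCODE M21). Control M833 had 13.3 CPM, M894 had 17.7, M896 had 13.3 and M898 had 16.4, while M893 had 9.68 CPM, M901 had 11.8, M902 had 7.15 and M909 had 13.2. The groups did not overlap, although M909 came close to M833 and M896, and M902 was lowest. Its log2 fold change, with standard error (SE), was -0.54 (SE 0.17, unadjusted p = 0.0114, adjusted p = 0.266 by edgeR). It was -0.22 (unadjusted p = 0.179, edgeR) when M894, M898, M901 and M902 were all left out, and -0.41 (unadjusted p = 0.0318) without M901 and M902 alone. DESeq2 gave an adjusted p of 0.0362 for *Vwf*, with 2.74% of all genes called at an adjusted p under 0.05 by that tool.

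*Pecam1*, the adhesion molecule CD31 of endothelial cell contacts (chr11:106654217-106750628, minus strand), had 9.74, 12.4, 10.98 and 10.4 CPM in controls M833, M894, M896 and M898, and 8.87, 9.38, 7.68 and 10.7 CPM in M893, M901, M902 and M909. Control values were mostly higher, but M909 lay within their range. The log2 fold change was -0.25 (SE 0.11, unadjusted p = 0.0400, adjusted p = 0.359 from the same edgeR test). It was -0.16 without M901 and M902 (unadjusted p = 0.210), -0.18 without M894 and M898 (unadjusted p = 0.193) and -0.085 without all 4 (unadjusted p = 0.513), all from edgeR. *Cdh5*, the VE-cadherin of endothelial adherens junctions (chr8:104101625-104144511, plus strand), had 5.10, 7.48, 5.76 and 7.15 CPM in the same controls and 5.48, 5.56, 3.37 and 5.42 CPM in the same order of *Rbfox2*-/- mice. M902 stood below all other libraries, and the remaining *Rbfox2*-/- mice fell within the control range. Its log2 fold change was -0.36 (SE 0.17, adjusted p = 0.404 from edgeR), and 0.0064 without M894, M898, M901 and M902.

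Neither tight junction gene passed the threshold even without adjustment. *Cldn5*, the claudin that dominates endothelial tight junctions (chr16:18776847-18778262, plus strand), had 7.67, 11.4, 7.33 and 7.66 CPM in M833, M894, M896 and M898 and 8.30, 10.2, 7.10 and 8.83 CPM in M893, M901, M902 and M909. M894 was far above the other controls, and the groups overlapped. Its log2 fold change was 0.017, with a 95% interval from -0.32 to 0.36, and its sign changed with the libraries left out and with the scaling. *Ocln*, occludin, a tight junction protein that the retinal pigment epithelium also makes (chr13:100496507-100552718, minus strand), had 4.55 to 6.59 CPM in controls and 4.24 to 5.17 CPM in *Rbfox2*-/- mice, with a log2 fold change of -0.21 (SE 0.12, adjusted p = 0.503 from edgeR).

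**Figure D1:**
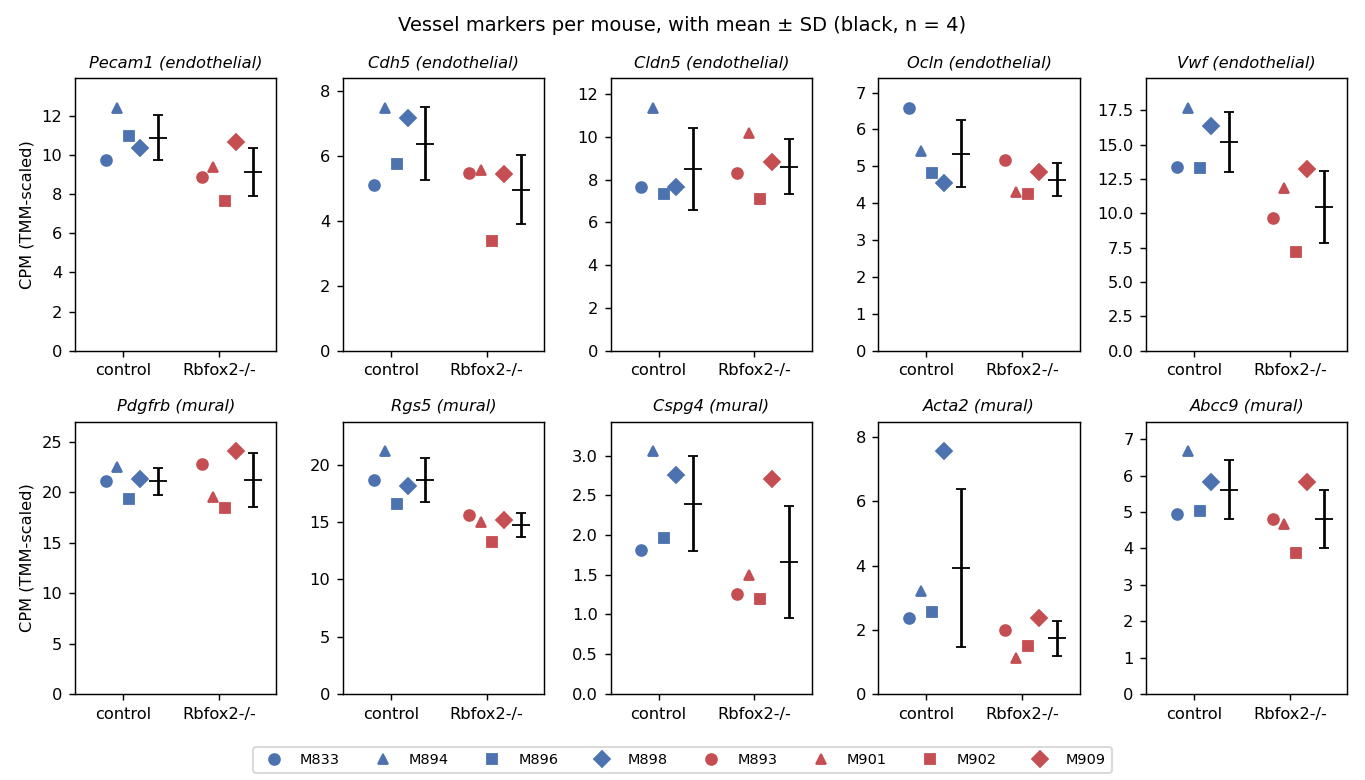
Levels of the 5 endothelial (top row) and 5 mural markers (bottom row) in CPM with TMM scaling, 1 point per mouse (blue control, red *Rbfox2*-/-, symbols name the mouse), with black bars for the mean ± SD (n = 4). *Vwf* and *Rgs5* are the markers whose groups do not overlap, and *Acta2* is highest in control M898 with 7.58 CPM.

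Mural markers were lower for 4 of 5 genes by their log2 fold change, with a median of -0.34. *Rgs5* and *Acta2* had an unadjusted p under 0.05, none passed after adjustment, and *Pdgfrb*, the receptor on which pericytes depend, had means of 21.1 and 21.3 CPM. *Rgs5* (chr1:169655501-169695813, plus strand) had 18.6, 21.2, 16.6 and 18.1 CPM in controls M833, M894, M896 and M898, and 15.6, 15.0, 13.2 and 15.2 CPM in M893, M901, M902 and M909. All *Rbfox2*-/- libraries lay below all controls. The log2 fold change of *Rgs5* was -0.34 (SE 0.080, unadjusted p = 0.00179, adjusted p = 0.176 from edgeR), and its *Rbfox2*-/- mean was 79.1% of the control mean. DESeq2 gave *Rgs5* an adjusted p of 0.0059. Without M901 and M902 its log2 fold change was -0.28, without M894 and M898 it was -0.26, and without the 4 libraries it was -0.19 (unadjusted p = 0.0499, edgeR).

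*Acta2*, smooth muscle alpha-actin, marks arteriolar smooth muscle more than capillary pericytes (chr19:34241090-34255590, minus strand). Control M833 had 2.36 CPM, M894 had 3.21, M896 had 2.56 and M898 had 7.58, against 1.99 CPM for M893, 1.11 for M901, 1.49 for M902 and 2.36 for M909. The high mean of the controls came from M898, and M909 was level with the lowest control. The log2 fold change was -1.17 (SE 0.38, unadjusted p = 0.0116, adjusted p = 0.268 from edgeR), the widest of the 10 markers. It was -0.64 without M898 (unadjusted p = 0.0260), -0.50 without M894 and M898 (unadjusted p = 0.103), and -0.18 without these and M901 and M902 (unadjusted p = 0.334), all from edgeR.

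*Pdgfrb* encodes the receptor for platelet-derived growth factor B. It had 21.2, 22.6, 19.4 and 21.3 CPM in M833, M894, M896 and M898 and 22.9, 19.5, 18.5 and 24.1 CPM in M893, M901, M902 and M909. M893 and M909 were above every control and M902 was below every control, so that the groups overlapped fully. Its log2 fold change was 0.011, with a 95% interval from -0.18 to 0.20. *Pdgfrb* therefore differed by less than the spread between mice in the retinas in which *Rgs5* was lower. Without M894, M898, M901 and M902, the fold change of *Pdgfrb* was 0.21 (unadjusted p = 0.0256, adjusted p = 0.908 from edgeR).

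*Cspg4*, the NG2 proteoglycan of pericytes and of oligodendrocyte precursors elsewhere (chr9:56865033-56899870, plus strand), had 1.81 to 3.06 CPM in controls and 1.26, 1.50, 1.19 and 2.70 CPM in M893, M901, M902 and M909. The first 3 of these mice were below every control, and M909 was within the range of the controls. Its log2 fold change was -0.52 (SE 0.28, adjusted p = 0.440 from edgeR). *Abcc9*, the sulfonylurea receptor subunit of the potassium channel of pericytes (chr6:142587862-142702315, minus strand), had 4.94 to 6.68 CPM in controls and 3.88 to 5.82 CPM in *Rbfox2*-/- mice, with a log2 fold change of -0.22 (SE 0.14, adjusted p = 0.508 from edgeR). An antisense gene in GENCODE overlaps *Abcc9* and another overlaps *Cdh5*, neither is in the count table, and the strand setting of the counting is not given in the sources used here.

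Sequences before the RefSeq transcription start are shown for 3 markers, *Acta2* with the widest difference, *Rgs5* with the lowest p, and *Cldn5*, whose groups overlapped. RefSeq entries (GRCm38.p6) were at hand for 6 of the 10 markers, namely *Rgs5*, *Abcc9*, *Cspg4*, *Ocln*, *Cldn5* and *Acta2*, and not for *Pecam1*, *Cdh5*, *Vwf* and *Pdgfrb*. The 250 bases upstream of each start were read, 5′ to 3′ on the strand of the gene, and are printed whole for *Rgs5* and *Cldn5*. For *Acta2* the RefSeq start lies inside the gene as GENCODE M21 places it, so that most of these bases are transcribed in that annotation, and only the matches with 10 bases on either side are printed. Capitals mark a CArG-like box, the kind of element that serum response factor binds in smooth muscle genes, searched as CC, 6 bases of which at least 5 are A or T, and GG, which reads alike on both strands. This rule was set after the sequences were read.
Acta2, first match (chr19:34255438-34255467, minus strand): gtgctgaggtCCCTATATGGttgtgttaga
Acta2, second match (chr19:34255388-34255417, minus strand): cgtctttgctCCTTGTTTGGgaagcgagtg
Rgs5 (chr1:169655251-169655500, plus strand): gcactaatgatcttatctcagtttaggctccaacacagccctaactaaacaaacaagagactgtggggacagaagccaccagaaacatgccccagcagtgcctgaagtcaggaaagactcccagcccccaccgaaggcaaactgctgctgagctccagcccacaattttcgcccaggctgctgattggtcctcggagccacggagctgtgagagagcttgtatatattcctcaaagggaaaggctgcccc
Cldn5 (chr16:18776597-18776846, plus strand): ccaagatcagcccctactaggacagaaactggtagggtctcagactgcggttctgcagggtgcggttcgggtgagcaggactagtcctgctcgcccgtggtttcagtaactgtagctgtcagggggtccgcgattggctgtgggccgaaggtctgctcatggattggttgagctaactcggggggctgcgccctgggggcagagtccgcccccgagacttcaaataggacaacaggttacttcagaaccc
The *Acta2* matches lie 84 to 75 and 34 to 25 bases before the RefSeq start, and the *Rgs5* and *Cldn5* stretches held none. One of the *Ocln* entries held 1 match, and *Abcc9* and *Cspg4* held none. Of 32851 RefSeq promoters of the same length, 8.59% held at least 1 such match. The letters AGGAAG, a core that ETS factors of endothelial cells can bind, were searched on both strands and were in none of the 6 markers and in 29.5% of all promoters. These matches describe the letters only and carry no measurement of binding.

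**Figure D2:**
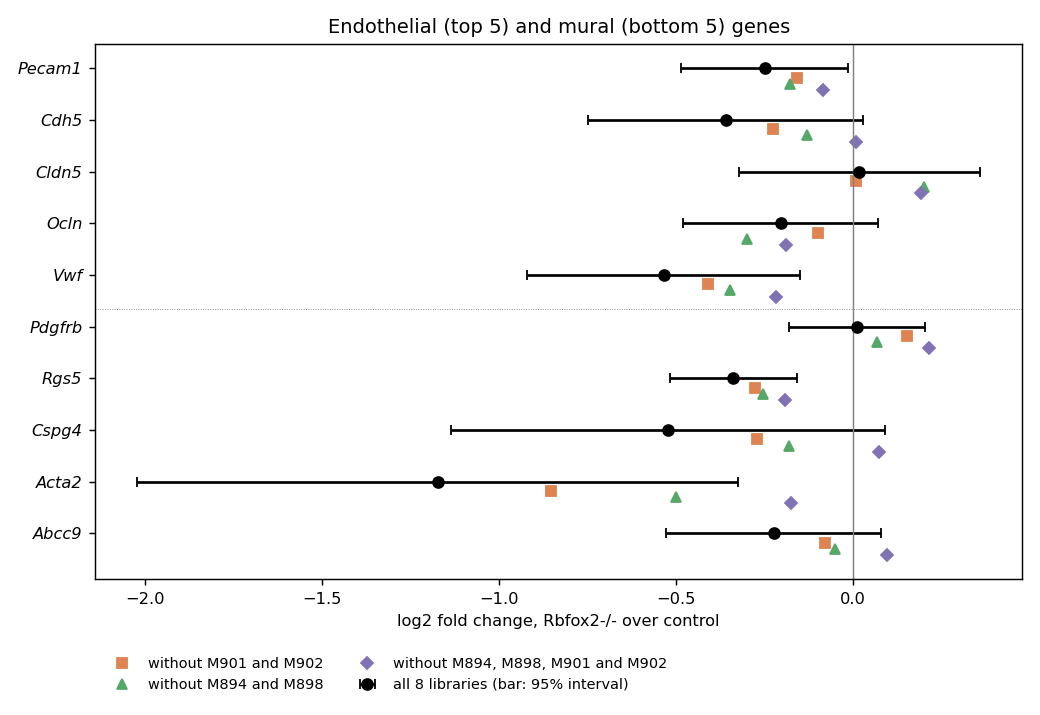
Log2 fold change of each marker (x axis, *Rbfox2*-/- over control) in all 8 libraries (black, bar for the 95% interval) and with libraries left out (coloured points, without intervals). Points move towards or past 0 for most markers as M901, M902, M894 and M898 are left out, while *Rgs5* stays between -0.34 and -0.19. The choice of these libraries itself favours such a move, since M894 and M898 are the highest controls and M901 and M902 are low for mural markers.

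Set side by side per library, the endothelial and the mural markers were both lowest in M902 and both within the control range in M909. As the mean of log2(CPM + 1) over the 5 genes relative to the control mean, the endothelial level was -0.082 in M833, 0.21 in M894, -0.11 in M896 and -0.017 in M898. Of the *Rbfox2*-/- mice, M893 had -0.21, M901 had -0.13, M902 had -0.53 and M909 had -0.086. The mural level on the same scale was -0.17, 0.13, -0.19 and 0.22 in the controls and -0.30, -0.43, -0.51 and -0.067 in the *Rbfox2*-/- mice, in the same orders. M901 was low for mural markers while its endothelial level was close to the lowest controls. The endothelial level minus the mural level differed between the groups by 0.086 (*Rbfox2*-/- minus control, SD 0.15 and 0.16), less than the spread between mice. One control, M898, was set apart by a difference of -0.24 between its endothelial and mural levels, against 0.076 to 0.085 in the other controls.

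**Figure D3:**
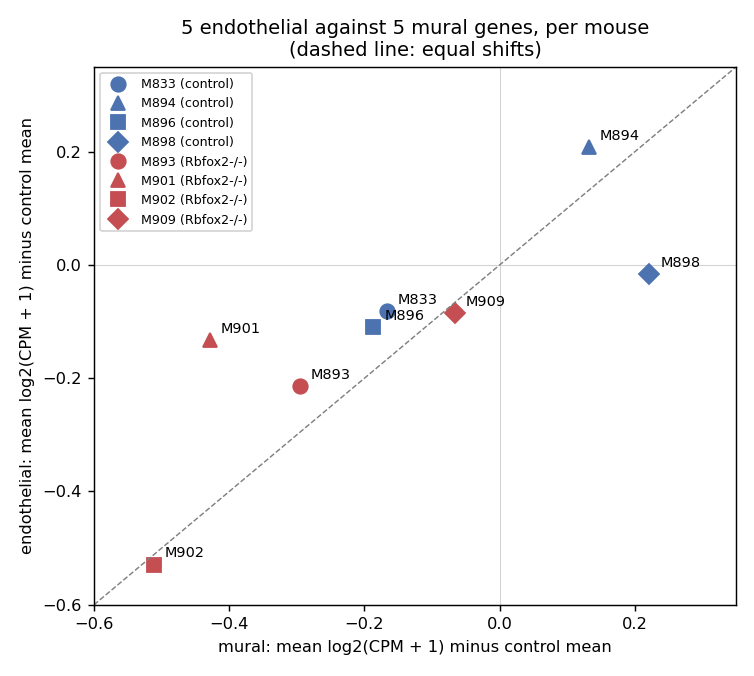
Mean log2(CPM + 1) of the 5 mural markers (x axis) and the 5 endothelial markers (y axis) per mouse, both relative to the control mean, with a dashed line where both shift equally. M902 is lowest on both axes, M909 sits near the controls M833 and M896, and M898 is the only control below the line.

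Leaving out libraries moved the counts as follows. Without M901 and M902, 8 of 10 markers still had a log2 fold change below 0 and 2 were lower at an unadjusted p under 0.05 (*Vwf* and *Rgs5*), where 2.46% of all genes were. Without the controls M894 and M898, 8 of 10 were below 0 and 1 (*Rgs5*) was lower at that threshold, where 3.48% of all genes were. Without all 4 of these libraries, 5 of 10 were below 0, *Rgs5* alone was lower at that threshold, and the median was -0.085 for endothelial and 0.073 for mural markers. These fits rest on 2 or 4 libraries per group, and both choices that leave out M894 and M898 were made after the values had been seen. M894 and M898 were the controls with the highest endothelial and mural levels. M901 and M902 were the *Rbfox2*-/- mice with the lowest mural levels. Leaving out such libraries together favours a move towards 0 by the choice itself. A smaller difference in these fits, here and for the lists below, is therefore no measure of its robustness. The difference was also smaller in an edgeR fit that kept all 8 libraries and added 1 surrogate variable, a covariate estimated from the data. There 8 of 10 markers were below 0, with a median of -0.14. In that fit 1 marker was lower at an unadjusted p under 0.05, where 2.65% of all genes were.

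Over the 8 libraries, the Pearson correlation of log2 CPM between pairs of markers had a median of 0.49 over the 10 endothelial pairs, 0.68 over the 10 mural pairs and 0.57 over the 25 pairs of 1 endothelial and 1 mural gene. The pairs share libraries and the group difference, so these are descriptions. *Pecam1* and *Vwf* went together most closely among endothelial markers (0.93), and *Cspg4* and *Abcc9* among mural ones (0.93). *Cldn5* stood apart from *Ocln* (0.061) and from *Acta2* (-0.14), the lowest of all pairs. Of all genes tested, the gene with the pattern most like each endothelial marker over the 8 libraries was *9330162012Rik* for *Pecam1* (0.96), *Gng12* for *Cdh5* (0.98), *Asb4* for *Cldn5* (0.96), *Phtf2* for *Ocln* (0.98) and *Ptprb*, the vascular endothelial phosphatase, for *Vwf* (0.99). For 4 of the mural markers it was *Vcl* for *Pdgfrb* (0.98), *C3ar1* for *Rgs5* (0.95), *Eva1a* for *Acta2* (0.99) and *Unc93b1* for *Abcc9* (0.99). Each value is the largest over all genes tested in only 8 libraries, so that a high correlation follows from the search itself. The mean levels of these genes ran from 0.085 CPM for *Asb4* to 40.7 CPM for *Vcl*, with 0.51 CPM for *C3ar1*. Of the 30 entries formed by the 3 most like genes of each marker, 5 belonged to one of the vessel lists described next, *Ptprb* and *Tcf7* for *Vwf*, *Tcf7* for *Cdh5*, *She* for *Rgs5* and *Myh11* for *Acta2*.

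Beyond these markers, other vessel genes were read out in lists that, like the markers, were chosen with earlier results of these data known. Their counts describe these libraries and lend no independent support. Among these lists, the 30 other endothelial genes were mostly lower as well. Their log2 fold changes were below 0 in 29 of 30, against 49.3% of all genes, with a median of -0.34. At an unadjusted p under 0.05, 12 were lower, against 6.87% of all genes, and none was higher, against 1079 of 16797 genes. In 5 of them all *Rbfox2*-/- libraries lay below all controls, against 3.39% of all genes. None of the 30 passed adjustment over all genes in the edgeR test, where the lowest adjusted p was 0.0837. *Ly6c1*, a surface antigen of brain and retinal endothelium, had 6.27, 6.97, 7.38 and 6.93 CPM in M833, M894, M896 and M898 and 4.27, 5.43, 4.59 and 4.58 CPM in M893, M901, M902 and M909. The groups did not overlap, with a log2 fold change of -0.55 (adjusted p = 0.0837 from edgeR). *Sox17*, a transcription factor of arterial endothelium, had 2.25 to 2.85 CPM in controls and 1.55 to 1.75 CPM in *Rbfox2*-/- mice, a log2 fold change of -0.60, and *She*, an adaptor protein gene, had 2.34 to 2.75 and 1.37 to 1.78 CPM, a log2 fold change of -0.64 (adjusted p = 0.0853 for both from edgeR). DESeq2 called 4 of the 30, *Ly6c1*, *She*, *Sox17* and *Ptprb*, where it called 2.74% of all genes, and edgeR's likelihood ratio test called the first 3 of these and 0.976% of all genes.

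The genes with the lowest p were then read out without the libraries that stood apart. Without M894, M898, M901 and M902, *Ly6c1* had a log2 fold change of -0.62 (unadjusted p = 0.00250), *Sox17* one of -0.50 (unadjusted p = 0.0236) and *She* one of -0.43 (unadjusted p = 0.0307), all by edgeR. For the list as a whole the same fit gave 18 of 30 below 0, a median of -0.053 and 3 genes lower at an unadjusted p under 0.05, where 1.84% of all genes were. That last count was 7 without M901 and M902 and 4 without M894 and M898. With all 8 libraries and 1 surrogate variable, 24 of 30 were below 0, with a median of -0.13. In that fit 4 were lower at an unadjusted p under 0.05 (edgeR), where 2.65% of all genes were. For the counts of lower genes in the lists that follow, the share of all genes tested that were lower at an unadjusted p under 0.05 was 9.46% without M833, 5.71% without M894, 4.51% without M898, 4.54% without M901, 4.63% without M902 and 9.2% without M909. It was 2.46% without M901 and M902, 3.48% without M894 and M898, and 1.84% without all 4. The list's most abundant genes hardly differed. *Podxl*, which neurons also express, had 218 to 240 CPM in controls and 219 to 230 CPM in *Rbfox2*-/- mice. *Kdr*, the main receptor for vascular endothelial growth factor, had 182 to 210 and 171 to 221 CPM. Whole retina does not show how much of the RNA of these genes came from endothelial cells, so they say little about endothelium alone.

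**Figure D4:**
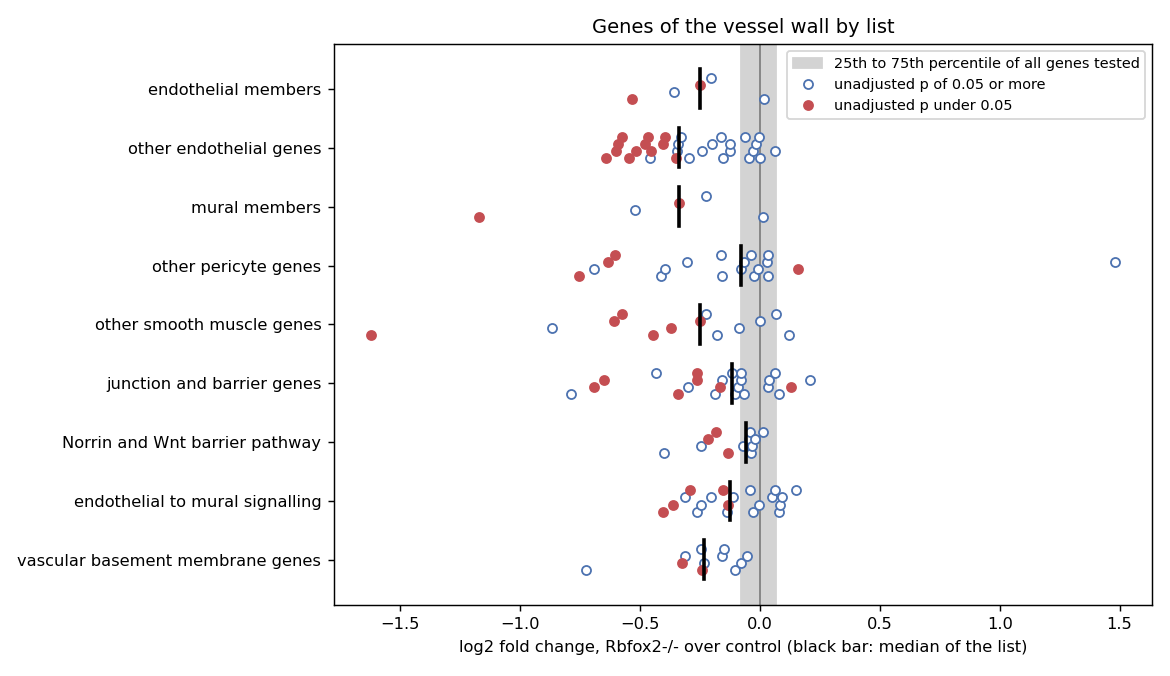
Log2 fold change (x axis, *Rbfox2*-/- over control) of each gene in 9 lists of the vessel wall, filled red at an unadjusted p under 0.05, with a black bar for the median of the list and a grey band from the 25th to the 75th percentile of all genes tested. The medians of both marker lists, of the other endothelial genes and of the other smooth muscle genes lie between -0.34 and -0.25, left of the band. That of the basement membrane genes is -0.23. No gene in the 9 lists passed adjustment over all genes in edgeR's quasi-likelihood test.

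Other pericyte genes were divided. Of 19 tested, 14 had a log2 fold change below 0 (49.3% of all genes) with a median of -0.081. At an unadjusted p under 0.05, 3 were lower (6.87% of all genes) and 1 was higher (1079 of all 16797 genes). The lower genes were *Gja4*, the gap junction protein connexin 37 of arterial vessels (-0.64, no overlap), *Notch3*, the Notch receptor of mural cells (-0.75), and *Des*, desmin (-0.61), with adjusted p from 0.266 to 0.363 (edgeR). *Notch3* had 9.30 and 10.2 CPM in the controls M894 and M898 but 5.56 and 6.12 CPM in M833 and M896, which M893 and M909 matched with 5.91 and 5.88 CPM. *Vtn*, vitronectin, was higher, with 746 to 817 CPM in controls and 843 to 892 CPM in *Rbfox2*-/- mice (log2 fold change 0.16, adjusted p = 0.192 from edgeR, 0.0058 from DESeq2), but photoreceptors make most of this RNA in mouse retina. *Rgs4*, the other abundant gene of the list, had a log2 fold change of 0.027, and how much of its RNA came from pericytes was not measured. The count of lower genes was 5 without M833 and 6 without M909, 1 without M901 and M902, 0 without M894 and M898, and 0 without all 4 of these libraries. The median was 0.010, -0.012 and 0.14 in the latter 3 fits, the last with 3 of 19 genes below 0.

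Smooth muscle genes were mostly lower too. Of 13 tested, 10 had a log2 fold change below 0 (49.3% of all genes), and the median was -0.25. At an unadjusted p under 0.05, 6 were lower (6.87% of all genes) and none was higher. *Myh11*, the smooth muscle myosin heavy chain, had 2.29, 4.94, 3.55 and 13.4 CPM in M833, M894, M896 and M898 and 2.51, 1.20, 1.26 and 2.89 CPM in M893, M901, M902 and M909. As for *Acta2*, M898 was by far the highest and M901 and M902 were the lowest. Its log2 fold change was -1.62 (adjusted p = 0.266 from edgeR), and -0.11 (unadjusted p = 0.640) without M894, M898, M901 and M902. The count of 6 lower genes was 3 without M894, 2 without M898, 1 without M901, 1 without M902, 0 without both of the latter, 1 without M894 and M898 and 1 without all 4. The median was -0.23 without M901 and M902, -0.14 without M894 and M898 and -0.018 without all 4. *Myl9*, *Crip1* and *Smtn* had -0.58, -0.37 and -0.25 (adjusted p from 0.338 to 0.364), and the 2 most abundant genes, *Mylk* (0.0017) and *Sncg* (0.065), the latter known from ganglion cells, did not differ beyond their spread. The share of *Mylk* RNA that came from smooth muscle was not measured either.

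Of 23 junction and barrier genes, 6 were lower (6.87% of all genes) and 1 was higher (1079 of all 16797 genes) at an unadjusted p under 0.05. In this list 17 were below 0 (49.3% of all genes), with a median of -0.11. *Abcb1a*, the P-glycoprotein pump of barrier endothelium, had 10.6, 13.7, 11.03 and 13.5 CPM in M833, M894, M896 and M898 and 8.17, 8.24, 6.22 and 8.42 CPM in M893, M901, M902 and M909. No *Rbfox2*-/- library reached a control, and the log2 fold change was -0.65 (adjusted p = 0.0853 from edgeR), or -0.38 (unadjusted p = 0.00422) without M894, M898, M901 and M902. *Plvap*, the diaphragm protein of fenestrated endothelium, which a closed barrier lacks, was also lower, with means of 16.3 CPM in controls and 13.6 CPM in *Rbfox2*-/- mice and no overlap (log2 fold change -0.26, adjusted p = 0.116 from edgeR). *Slc7a5*, a carrier of large neutral amino acids, had -0.26 (adjusted p = 0.228, no overlap) and *Jam2*, a junctional adhesion molecule, had 0.13 (adjusted p = 0.221, no overlap, higher). *Slc2a1*, the glucose carrier GLUT1, and *Slc16a1*, a lactate carrier, had -0.10 and -0.078 and overlapped. DESeq2 called *Abcb1a*, *Plvap*, *Slc7a5* and *Tjp3* of this list, the last with a log2 fold change of -0.34. The count of 6 lower genes was 10 without M909, 3 without M901 and M902, 5 without M894 and M898, and 2 without all 4. The median was 0.00014 without M901 and M902, -0.10 without M894 and M898 and 0.028 without all 4, the last with 10 of 23 genes below 0.

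The Norrin and Wnt pathway, by which the retina keeps its endothelial barrier, showed 3 of 12 genes lower and none higher at an unadjusted p under 0.05. Lower at that threshold were 6.87% of all genes. In this list 11 were below 0 (49.3% of all genes), with a median of -0.058. *Fzd4*, the Norrin receptor, had 16.8 to 21.9 CPM in controls and 15.1 to 17.5 CPM in *Rbfox2*-/- mice (log2 fold change -0.22, adjusted p = 0.320), *Reck*, a co-receptor for Wnt ligands, had -0.18 (adjusted p = 0.300) and *Apcdd1*, a Wnt antagonist and target, had -0.13 (adjusted p = 0.316), all from edgeR. *Tcf7*, *Ctnnb1* and *Lrp6* had -0.24, -0.021 and -0.072. Without M901 and M902, 11 of the 12 were below 0 and 1 was lower at that threshold, without M894 and M898 these counts were 8 and 0, and without all 4 they were 9 and 0, with 1 gene higher.

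Among 20 genes of signalling between endothelial and mural cells, 5 were lower (6.87% of all genes) and none was higher at an unadjusted p under 0.05. In this list 14 were below 0 (49.3% of all genes), with a median of -0.12. *Acvrl1*, the endothelial receptor ALK1, had 5.81 to 7.06 CPM in controls and 4.16 to 5.81 CPM in *Rbfox2*-/- mice with no overlap by a narrow margin (log2 fold change -0.36, adjusted p = 0.239 from edgeR, 0.0479 from DESeq2), and *Tgfbr2*, the type II receptor for transforming growth factor beta, had -0.41 (adjusted p = 0.268). Without M894, M898, M901 and M902 the log2 fold change was -0.14 for *Acvrl1* (unadjusted p = 0.284) and -0.065 for *Tgfbr2* (unadjusted p = 0.636), both from edgeR. *Tgfb2*, *Tgfbr1*, *Cdh2* and *Jag1* had -0.13, -0.15, -0.041 and 0.092. The count of 5 lower genes was 0 without M901 and M902, where 1 was higher, 2 without M894 and M898, and 0 without all 4, with medians of -0.044, -0.044 and -0.034. Of 11 basement membrane genes all 11 were below 0 (49.3% of all genes) with a median of -0.23. *Lama5* (-0.33) and *Fn1* (-0.24) were lower at an unadjusted p under 0.05 (6.87% of all genes), with adjusted p of 0.322 and 0.355 (edgeR). *Hspg2* and *Sparc* of that list had -0.31 and -0.15. The basement membrane list lost this direction as libraries were left out, with 8 of 11 below 0 and a median of -0.079 without M901 and M902, 6 of 11 and -0.0036 without M894 and M898, and 3 of 11 and 0.059 without all 4. None of the 11 was lower at an unadjusted p under 0.05 in these 3 fits, and in the last 1 was higher.

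Markers of pigmented tissue next to the retina varied widely between libraries. The summed level of 7 melanocyte and pigment genes was 21.2, 165, 34.5 and 373 CPM in controls M833, M894, M896 and M898 and 76.1, 10.8, 15.5 and 36.7 CPM in M893, M901, M902 and M909. All 7 log2 fold changes were below 0 (49.3% of all genes) and 3 genes were lower at an unadjusted p under 0.05 (6.87% of all genes). M898, highest for pigment genes, was also highest for *Acta2* and *Myh11*, and M901 and M902, lowest for pigment genes, were lowest for both. M893, by contrast, was above the controls M833 and M896 for pigment genes while its endothelial and mural levels, -0.21 and -0.30, were below every control. Of the pigment genes, *Dct* ranged from 4.78 CPM in M901 to 224 CPM in M898 and *Tyrp1* from 1.86 to 65.7 CPM in the same libraries. The part of this tissue in the differences of *Acta2*, *Cspg4* and the other markers was not tested, beyond the values without these libraries given above.

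Fibroblast genes (8 of 8 below 0, 1 lower at an unadjusted p under 0.05) summed to 56.9 to 93.4 CPM in controls, 73.1 and 71.9 CPM in M893 and M909, and 21.0 and 23.9 CPM in M901 and M902. Ciliary body and iris genes (8 of 8 below 0, 2 lower) summed to 509.6 to 572 CPM in controls and 456 to 505 CPM in *Rbfox2*-/- mice, a sum that *Tfap2b* and *Aqp1*, also expressed within the retina, dominated. *Best2*, a ciliary epithelium gene named after its values were seen, had 0.15 and 0.21 CPM in M901 and M902 and 4.14 to 16.0 CPM elsewhere. Astrocyte genes (4 of 5 below 0, 1 lower) summed to 107 to 228 CPM in controls, with M894 and M898 highest, and 94.1 to 139 CPM in *Rbfox2*-/- mice, a spread that *Igfbp5* carried. Beside the counts of these lists, 49.3% of all genes were below 0 and 6.87% were lower at an unadjusted p under 0.05. The part of these cell types in the vessel genes was not tested.

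Microglia and leukocyte genes summed to 37.0 to 40.1 CPM in controls and 32.7 to 41.5 CPM in *Rbfox2*-/- mice, none of 8 with an unadjusted p under 0.05. Platelet genes, which could supply *Vwf* and *Pecam1*, summed to 12.9 to 14.2 and 11.9 to 14.2 CPM, with none of 3 tested at an unadjusted p under 0.05. *Gp1bb* made most of this sum (mean 11.9 CPM over the 8 libraries), and how much of its RNA came from platelets was not measured. The defining platelet gene *Pf4* had 0.073 to 0.18 CPM in controls, 0.13 CPM in M893 and 0.094 CPM in M909, and was at 0 in M901 and M902. *Alas2*, the only red blood cell gene tested, had 1.33 to 3.61 CPM in controls and 0.61 to 1.81 CPM in *Rbfox2*-/- mice. Pigment epithelium genes summed to 432 to 572 and 437 to 569 CPM, a sum made mostly by *Trpm1*, which bipolar cells also express (mean 355 CPM over the 8 libraries), while *Ttr* ranged from 30.0 to 90.6 CPM. Oligodendrocyte genes summed to 48.1 to 52.3 and 50.9 to 52.6 CPM, and orbital muscle genes to 4.32 to 6.45 and 4.19 to 6.68 CPM, and none of the 8, 3 and 6 genes tested in these 3 lists had an unadjusted p under 0.05. Of 14 genes that define the retina's own cell types, 3 were lower (6.87% of all genes) and 2 higher (1079 of all 16797 genes) at that threshold. In this list 4 were lower without overlap, against 3.39% of all genes. *Glul*, the glutamine synthetase of Müller glia, named after its values were seen, had means of 3384 CPM in controls and 3002 CPM in *Rbfox2*-/- mice without overlap (log2 fold change -0.17, adjusted p = 0.221 from edgeR, 0.0116 from DESeq2). *Gnat1*, the rod transducin alpha subunit, had means of 13780 CPM in controls and 15762 CPM in *Rbfox2*-/- mice (log2 fold change 0.19, adjusted p = 0.236 from edgeR).

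**Figure D5:**
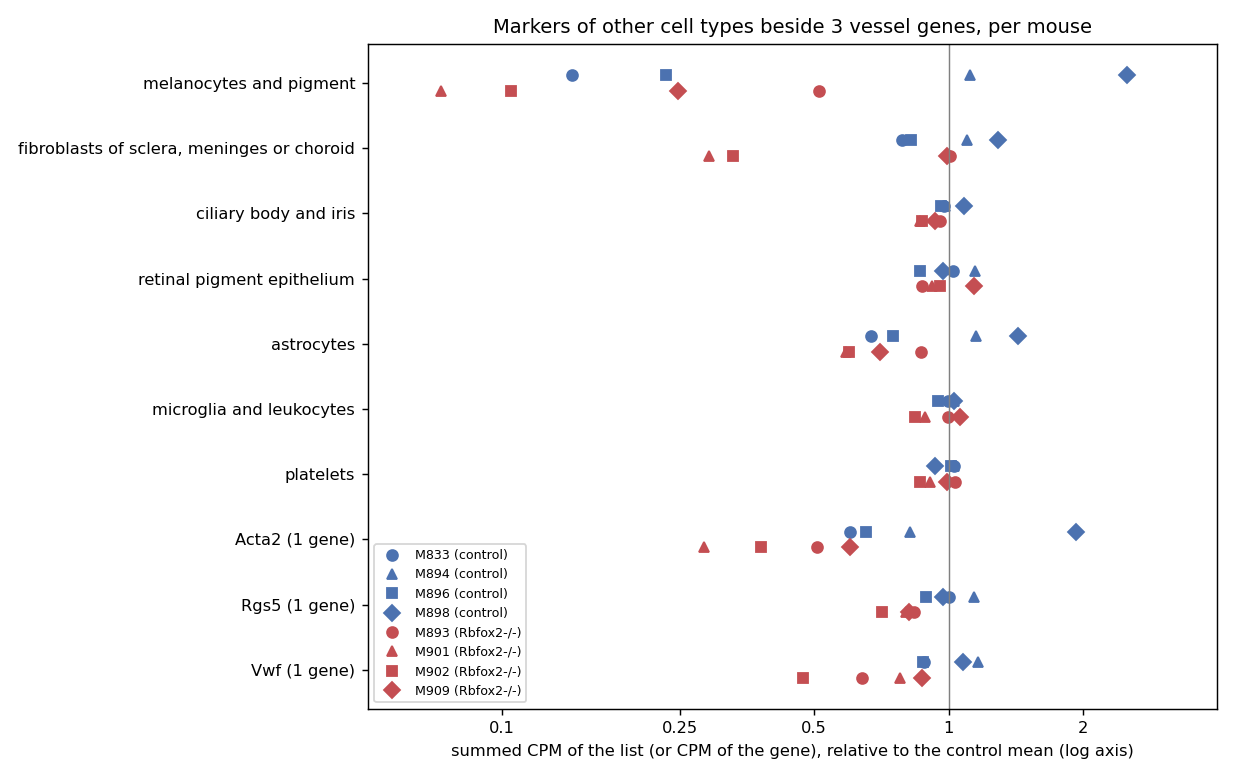
Summed CPM of marker lists of other cell types, and the CPM of *Acta2*, *Rgs5* and *Vwf*, per mouse relative to the control mean (x axis, logarithmic, blue control, red *Rbfox2*-/-). Pigment genes spread most, from 10.8 CPM in M901 to 373 CPM in M898, *Acta2* is likewise highest in M898 and lowest in M901, and *Rgs5* and *Vwf* vary less.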

How the data were processed

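Retinal RNA was sequenced as paired reads from poly(A)-selected libraries (Nugen Universal Plus mRNA-seq), 1 library per mouse. The authors aligned the reads to mm10 with STAR, used HTSeq to count those that mapped uniquely to each gene, and the deposited counts carry no normalization. The FPKM values deposited by the authors equal the counts divided by the total and by 1 length per gene, and were used to set levels of different genes side by side. The submitters' processing notes also name CASAVA 1.8.2 and edgeR. Normalized counts, fold changes and p-values of the authors' own comparison are in the same table and were not used.

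Groups were taken from the genotype labels. Nothing in the labels separates cultures or litters beyond 1 mouse per library, and the libraries of a group all differed from each other by more than sampling noise. Counts were filtered with filterByExpr, scaled by TMM and compared by the quasi-likelihood test of edgeR 4.0.16 (R 4.3.3) on all genes, without covariates, with Benjamini-Hochberg adjustment and a threshold of 0.05. The procedure was tested on simulated counts. Levels are CPM on TMM-scaled library sizes, a pseudocount of 1 CPM entered the mean log2 levels and 0.1 CPM the correlations, and 3 counts correspond to at most 0.0189 CPM, for counting error only.

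The markers and gene lists were chosen with earlier results of these data known. Named were all 10 markers, and of each other vessel list the 4 genes with the lowest p and the 2 most abundant, of the lists of other cell types the 2 most abundant, and of the genes most like a marker the first 3, from which the text gives some. Genes were placed on GENCODE M21 (GRCm38). As alternatives, edgeR's likelihood ratio test, DESeq2 1.42.0, limma-voom and limma-trend (limma 3.58.1), upper-quartile or library size scaling, no filter, at least 10 counts in every library, other pseudocounts, each library left out, M901 and M902 left out, and 1 surrogate variable (sva 3.50.0) were used. Leaving out M894 and M898, alone or with M901 and M902, was added after the data were seen.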

Additional observations from a re-analysis of the deposited data

Results flagged for a closer look

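In 26 groups of 4 libraries (each marker and each mean level in each group), the distance of the library at either end from its nearest neighbour was taken as a share of the range of the group. The 4 cases past the 95% critical value compare with 1.3 that chance gives at 1 in 20. This is a guide only, since the mean levels hold the same markers and the groups are not independent. *Cldn5* had 11.4 CPM in control M894 and 7.33 to 7.67 CPM in the other controls. *Acta2* had 7.58 CPM in control M898 and 2.36 to 3.21 CPM in the other controls. The endothelial minus the mural level of M898, which includes its *Acta2* value, was -0.24 on the log2(CPM + 1) scale, against 0.076 to 0.085 in the other controls. *Cdh5* had 3.37 CPM in M902 and 5.42 to 5.56 CPM in the other *Rbfox2*-/- mice.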

How the results depend on the processing

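The number of genes past the threshold was 11 with edgeR's quasi-likelihood test, 460 with DESeq2, 164 with edgeR's likelihood ratio test and 5 with 1 surrogate variable. It was between 5 and 35 with each library left out (35 without M833, 19 without M894, and 5 or 6 without M896, M898, M893, M901 or M909). It was 1 without M901 and M902, 5 without M894 and M898, and 3 without these 4 libraries. DESeq2 called 1 endothelial marker (*Vwf*) and 1 mural marker (*Rgs5*), and no other alternative called any of the 10.

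At an unadjusted p under 0.05, the count of endothelial markers, 2 at first, was 1 to 3 with each library left out (1 without M894, M896, M893, M901 or M902, and 3 without M833), 1 without M901 and M902, and 0 with 1 surrogate variable, without M894 and M898, or without the 4 libraries. The count of mural markers, 2 at first, was 2 to 4 with each library left out (4 without M909), 1 without M901 and M902 and 1 without M894 and M898. Over all genes tested, the share lower at that threshold was 6.87% with all 8 libraries. It was 9.46% without M833, 5.71% without M894, 5.2% without M896 and 4.51% without M898. It was 6.72% without M893, 4.54% without M901, 4.63% without M902 and 9.2% without M909. The share was 2.46% without M901 and M902, 3.48% without M894 and M898, 1.84% without all 4 and 2.65% with 1 surrogate variable. The log2 fold change of *Cldn5* reversed with scaling by library size only (-0.00052), and ranged from -0.075 to 0.19 with each library left out. That of *Pdgfrb* reversed likewise (-0.0056), with a range from -0.056 to 0.070. Without the 4 libraries, the mural median (0.073), *Cdh5* (0.0064), *Cspg4* (0.073) and *Abcc9* (0.096) reversed. The 4 include the controls with the highest levels and the *Rbfox2*-/- mice with the lowest mural levels, which favours such a shift by the choice itself. The cause of these changes was not tested, apart from the fewer libraries per group. *Pecam1*, *Ocln*, *Vwf*, *Rgs5* and *Acta2* kept their direction under all 20 alternatives.

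No paired analysis was possible because the labels give no replicate numbers that the groups share. Fits with 2 libraries in a group take the spread from all libraries together. With 4 mice per group, the spread between mice limits these values more than depth does.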
